A study of Neurospora crassa with 112 samples.

Results

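The comparison described here set 12 strains of *Neurospora crassa* collected at Houma, in southeastern Louisiana, against 25 strains collected in the southwest of the state, 10 at Welsh, 7 at Roanoke and 8 at Iowa. These 37 strains, of 112 in the series, were assigned to the groups by the collection places in the study's own list of strains, and no expression value enters that rule. All are wild-type strains of the JW series, isolated from nature and carrying no engineered allele, and the mycelium was harvested after 16 h of growth on a cellophane sheet laid on Bird medium, a defined minimal medium. Polyadenylated RNA of each strain was sequenced as 1 library and no strain had a second culture, so each strain counted as 1 replicate, and the effect of a strain cannot be told apart from that of its culture or library. The study left JW168, a Houma strain, out of its tree of the population as possibly misclassified, and results are given without it where that matters. The other 71 libraries of the series, with near-identical columns counted once, served to show where a level found at Houma was also found elsewhere, to choose the genes that switch between strains and in 1 alternative fit. They include JW9, collected at Welsh, and JW96, collected at Roanoke, which are outside the 25 and were added to them in another alternative.

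*N. crassa* is a filamentous ascomycete that grows as a network of fused hyphae and spreads by airborne asexual spores, the conidia. It outbreeds, since mating needs partners of opposite mating type, and in Louisiana it appears on burned vegetation. Strains that differ at allorecognition genes refuse each other when their cells meet or, at some of these genes, before they meet. Wild strains of the species differ in DNA sequence along all chromosomes, and gene expression in mycelium can differ with genotype and with the state of the culture.

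Expression was given in RPKM, read counts scaled to the length of the gene and to the total of the library. The recovered totals were 8740622 to 26358960 reads in the Houma libraries (median 21220894) and 10351333 to 26850398 in the southwestern ones (median 21838573). Each pair of the 37 columns differed, with 0% identical values among genes above 0. Across the genes tested, a library's median correlation with the other 36 was 0.880 for JW234 and 0.928 for JW168 from Houma and 0.891 for JW160 from Iowa, against 0.929 to 0.960 for the other 34. JW234 had 472 genes more than 2 on the log2 scale away from the median of the other strains, JW160 had 456 and JW168 had 203, against 50 to 182 in the rest. In JW234 *poi-2*, a gene known for abundant transcripts in sexual development, stood at 4766 RPKM, against a highest value of 619 RPKM in the southwestern strains. In JW160 the genes *gh6-3*, *gh11-2* and *gh10-1*, of glycoside hydrolase families that attack cellulose and xylan, stood at 1615, 368 and 259 RPKM, against highest Houma values of 22.9, 5.498 and 0.724 RPKM.

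No gene passed the test between Houma and the southwest. The difference was taken on the log2(RPKM + 1) scale as the Houma mean minus the southwestern mean, with limma across the 7984 genes that averaged at least 1 RPKM over the 37 libraries. After Benjamini-Hochberg adjustment 0 genes, or 0%, had a p under 0.05, and the smallest adjusted p was 0.212. At an unadjusted p under 0.05 there were 441 genes, 5.52% of those tested, of which 262 (3.28%) were lower in Houma and 179 (2.24%) were higher. The limma test with voom weights on the recovered reads also called 0 genes, with 497 at an unadjusted p under 0.05. The expression ranges of the groups overlapped for every gene tested, so that 0 genes (0%) had all Houma values on one side of all southwestern values.

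The intervals of these differences were narrow for most genes. The median width of the 95% interval was 0.493 on the log2 scale, and for 7449 genes, 93.3% of those tested, the whole interval lay between -1 and 1, that is within a 2-fold difference of RPKM + 1 either way. Within a 1.5-fold difference lay the intervals of 78.4% of the genes. The remaining 535 genes had intervals that reached past a 2-fold difference. The median difference over all genes was -0.024, with 4638 genes below 0 and 3346 above, and the middle 90% of the differences ran between -0.31 and 0.26. Only 12 genes had a fitted difference beyond 1 in size, all of them lower in Houma.

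**Figure D1:**
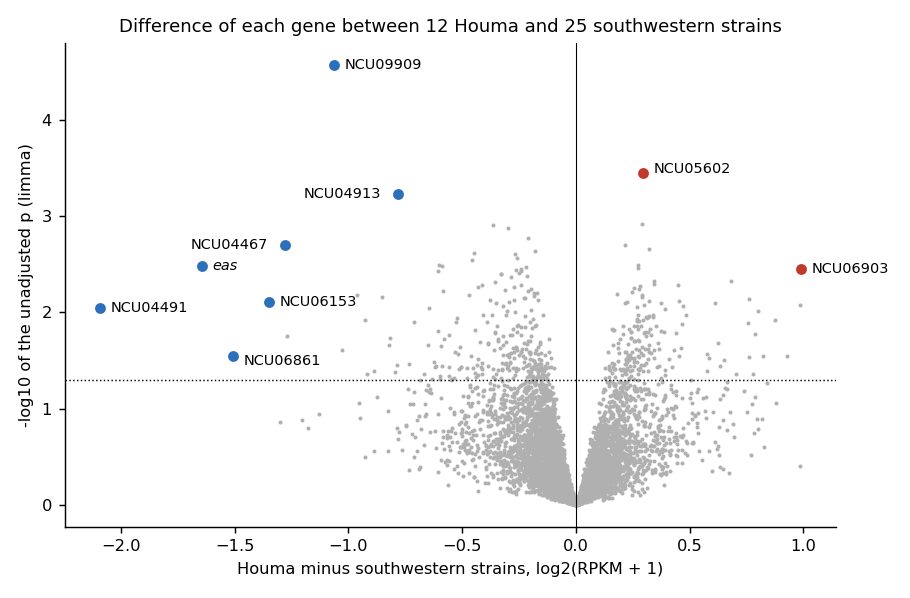
Each point is 1 of the 7984 genes tested, with the Houma minus southwestern difference in log2(RPKM + 1) on the x axis and -log10 of the unadjusted limma p on the y axis, and the dotted line marks an unadjusted p of 0.05. Blue points are named genes lower in Houma and red points named genes higher in Houma; NCU09909 has the smallest p (adjusted p 0.212), and every point beyond 1 in size lies on the negative side.

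The gene with the smallest p was NCU09909, on chromosome I, for which the table of names used here gives no symbol. NCU09909 ran between 7.75 and 22.5 RPKM in the 12 Houma strains, with a median of 12.9, against 12.8 to 102 RPKM in the 25 southwestern strains, with a median of 26.4. All 12 Houma strains lay below the southwestern median, 6 lay below the lowest southwestern strain, and 15 of the 25 southwestern strains lay above the highest Houma strain, JW169 at 22.5 RPKM. The fitted difference was -1.06 (SE 0.22, 95% interval -1.51 to -0.61, unadjusted p = 2.65e-05, limma adjusted p = 0.212).

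NCU09909 was lower in Houma against each southwestern place taken alone. It was picked from these same strains, and the comparisons share the Houma strains, so they are not separate tests. The medians were 22.3 RPKM at Welsh, 30.1 at Roanoke and 26.5 at Iowa, and the difference of Houma was -0.89 against Welsh, -1.49 against Roanoke and -0.91 against Iowa. Among the 3 southwestern places themselves the limma F test gave an unadjusted p of 0.157 for this gene (adjusted p = 0.968). Low levels were not found at Houma alone, since the strains of the series collected at Coon had a median of 9.0004 RPKM (range 6.92 to 45.99), while those from Franklin had a median of 22.3. Over the 20 alternatives tried the difference of NCU09909 lay between -1.49 and -0.89 and its limma adjusted p between 0.111 and 1.00.

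The other genes with the smallest p among those lower in Houma differed by less than NCU09909. NCU04913, a weakly expressed gene of chromosome IV with no symbol, had 0.318 to 3.14 RPKM in Houma (median 0.868) against 0.752 to 6.49 RPKM in the southwest (median 2.105), a difference of -0.78 (SE 0.21). These levels rest on 2 to 24 reads per Houma library and 6 to 72 per southwestern library. *pex19*, which encodes a carrier for proteins of the peroxisomal membrane, had 45.1 to 88.6 RPKM in Houma (median 57.7) against 58.8 to 96.3 RPKM in the southwest (median 69.05), a difference of -0.30 (SE 0.086). For *pex19* 6 Houma strains lay below every southwestern strain, and JW233, at 88.6 RPKM, lay above most of them. *rcm-1*, the homolog of the yeast transcriptional co-repressor Ssn6, had 49.6 to 82.9 RPKM in Houma (median 67.9) against 69.2 to 99.5 RPKM in the southwest (median 76.7), a difference of -0.21 (SE 0.062), with 7 Houma strains below every southwestern strain. The unadjusted p was 0.000588 for NCU04913, 0.00131 for *pex19* and 0.00169 for *rcm-1*, and the limma adjusted p was 0.855 for each of them.

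The genes NCU02464, NCU02465 and NCU02466, all lower in Houma, are direct neighbours on chromosome I. NCU02466 is among the 5 with the smallest p, and the other two were singled out after their values were seen. NCU02464 had 171 to 321 RPKM in Houma (median 214) against 173 to 323 RPKM in the southwest (median 259), a difference of -0.21 (SE 0.070). NCU02465 had 0.918 to 6.2998 RPKM in Houma (median 2.66) against 1.64 to 7.86 RPKM in the southwest (median 4.54), a difference of -0.60 (SE 0.19). NCU02466 had 22.5 to 47.6 RPKM in Houma (median 31.8) against 27.5 to 56.4 RPKM in the southwest (median 39.7), a difference of -0.36 (SE 0.10). The groups overlapped for all of them, with 11 of 12 Houma strains below the southwestern median for NCU02464, 9 for NCU02465 and 10 for NCU02466. Their unadjusted p values were 0.00417, 0.00322 and 0.00122, with a limma adjusted p of 0.855 each, while the next genes outward, NCU02463 and NCU02467, had unadjusted p values of 0.401 and 0.206.

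Genes with the smallest p among those higher in Houma were NCU05602, NCU08032, NCU03884, NCU06090 and NCU08295, none of which has a symbol in the table of names. NCU05602, on chromosome VI, had 16.8 to 26.7 RPKM in Houma (median 23.1) against 12.003 to 22.3 RPKM in the southwest (median 17.8). Of the 12 Houma strains 7 lay above every southwestern strain, 10 of the 25 southwestern strains lay below every Houma strain, and only JW172 lay below the southwestern median. Its difference was 0.30 (SE 0.075, 95% interval 0.14 to 0.45, unadjusted p = 0.000354, limma adjusted p = 0.855). The medians of the southwestern places were close to each other, at 17.8 RPKM in Welsh, 17.95 in Roanoke and 17.01 in Iowa.

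The rest of these genes overlapped more with the southwestern strains. NCU08032 had a median of 18.6 RPKM in Houma (range 15.5 to 28.999) against 15.6 in the southwest (range 10.6 to 20.3), a difference of 0.29. NCU03884 had a median of 20.03 RPKM in Houma (range 16.5 to 24.9) against 17.2 in the southwest (range 13.3 to 20.7), a difference of 0.21. For NCU08032 3 Houma strains exceeded every southwestern strain, JW234 and JW168 among them, and for NCU03884 4 did. NCU06090 had a median of 66.98 RPKM in Houma (range 50.8 to 107) against 55.7 in the southwest (range 31.9 to 74.1), a difference of 0.32. NCU08295 had a median of 164 RPKM in Houma (range 131 to 215) against 135 in the southwest (range 90.9 to 186), a difference of 0.27. All had a limma adjusted p of 0.855, with unadjusted p values between 0.00121 for NCU08032 and 0.00319 for NCU08295.

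**Figure D2:**
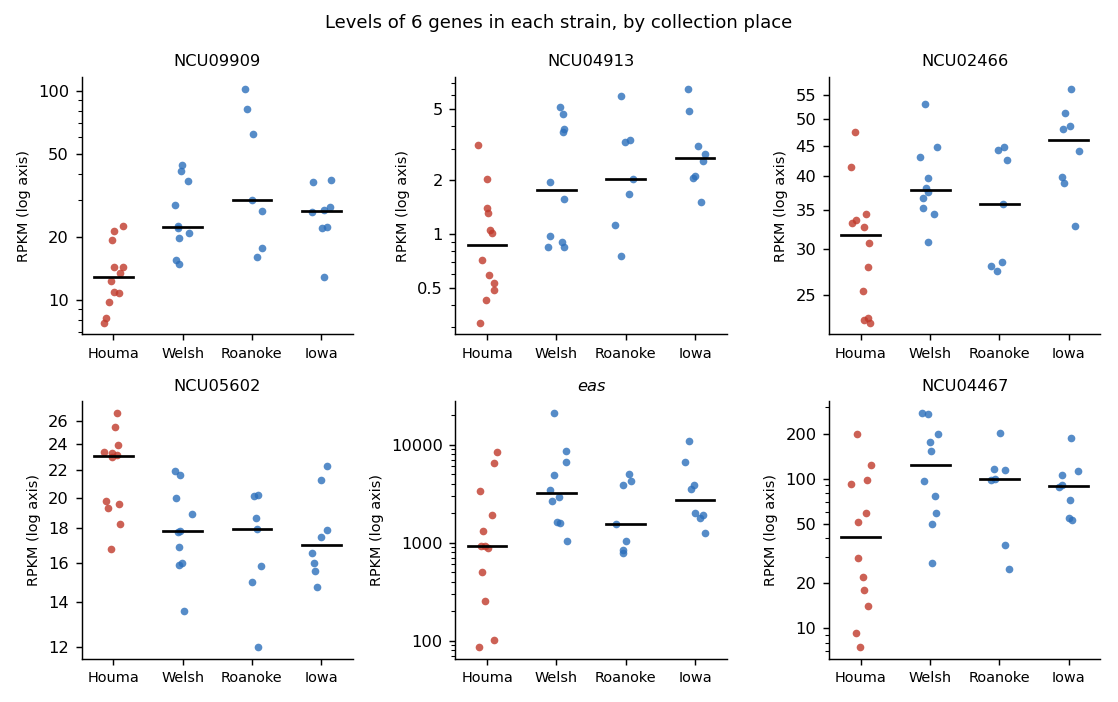
Each point is 1 strain, with its RPKM on a log y axis and its collection place on the x axis (Houma in red, the 3 southwestern places in blue), and the black bar is the median of the place. NCU09909 has a Houma median of 12.9 RPKM against place medians of 22.3 to 30.1, while *eas* and NCU04467 spread widely within every place.

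Among the genes furthest apart was *eas*, which encodes the hydrophobin that coats conidia and aerial hyphae and makes them repel water. It belonged to a list of conidiation genes, and it was singled out from that list after its values were seen. The transcript was abundant and very variable, at 85.7 to 8393 RPKM in Houma (median 919) against 777 to 21014 RPKM in the southwest (median 2958). The lowest southwestern strain lay above 4 Houma strains, namely JW174 at 85.7 RPKM, JW172 at 102, JW234 at 251 and JW75 at 496, while JW168 at 8393 and JW76 at 6469.9 lay above the southwestern median. The difference was -1.64 (SE 0.52, 95% interval -2.71 to -0.58, unadjusted p = 0.0033, limma adjusted p = 0.855). Without JW168 it was -1.93 (unadjusted p = 0.00054), and over all 20 alternatives it lay between -1.99 and -1.04, with limma adjusted p values of 0.310 to 1.00. Against Roanoke, whose median was 1563 RPKM, the difference was the smallest of the 3 places at -1.04, against -1.99 for Welsh and -1.75 for Iowa.

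The other conidiation genes did not share the difference of *eas*. Of 10 conidiation genes tested 5 were below 0 and 5 above, with a median difference of -0.031 against -0.024 over all genes, and *eas* alone had an unadjusted p under 0.05. *con-6*, expressed during conidiation, had 24.01 to 387 RPKM in Houma (median 174) against 38.3 to 919.7 RPKM in the southwest (median 179.7), a difference of 0.050. *fl*, the transcription factor that drives conidial budding, had a median of 14.5 RPKM in Houma and 14.9 in the southwest, a difference of -0.22 (SE 0.19). *con-10* had medians of 18.04 RPKM in Houma and 18.1 in the southwest, although JW234 stood alone at 489 RPKM. Summed over the list without *eas*, the level ran between 151 and 814 RPKM in Houma and between 205 and 1159 RPKM in the southwest, so that conidiation genes were expressed in every library of both groups, and their part in the difference of *eas* was not tested.

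A further 6 genes beyond 1 in size had an unadjusted p under 0.05, chosen here for that size after the values were seen. NCU04491 had 1.57 to 464 RPKM in Houma (median 97.2) against 3.65 to 786 RPKM in the southwest (median 237), and the largest fitted difference of the table, -2.09 (SE 0.76). NCU04467 had 7.45 to 199 RPKM in Houma (median 40.5) against 24.8 to 274 RPKM in the southwest (median 97.02), a difference of -1.28 (SE 0.39), with 5 Houma strains below every southwestern strain. NCU06861 had 0.265 to 77.7 RPKM in Houma (median 6.18) against 1.07 to 164 RPKM in the southwest (median 31.8), a difference of -1.51 (SE 0.66). Among the 37 strains 3 lay under 1 RPKM for NCU06861, all from Houma, namely JW169 at 0.417 RPKM, JW174 at 0.265 and JW200 at 0.418, while 11 of the other 71 libraries also lay under 1 RPKM, among them JW9 from Welsh at 0.759 RPKM. The differences of NCU06153, NCU09147 and NCU02975 were -1.35, -1.27 and -1.03, with medians of 15.99, 1.62 and 0.129 RPKM in Houma against 48.6, 3.91 and 4.23 RPKM in the southwest. Every one of these had a limma adjusted p of 0.855.

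Detection of transcripts gave no call either. The study mapped reads to the genome of the laboratory strain to find variants, and the deposited values are for a gene set shared by all strains. A value near 0 therefore cannot tell a gene that was not transcribed from one missing or too divergent for its reads to map. This was not tested. A gene was counted as detected in a strain at 1 RPKM or more, and the 1350 genes detected in at least 3 and undetected in at least 3 of the 37 strains were compared by a two-sided Fisher's exact test. With Benjamini-Hochberg adjustment 0 genes (0%) passed and the smallest adjusted p was 0.984. At an unadjusted p under 0.05 there were 53 genes, 3.93% of those tested, 25 detected in a larger share of Houma strains and 28 in a smaller share. Detection limits of 0.5 and 5 RPKM also gave 0 calls.

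Of the 10 genes with the smallest Fisher p, 5 were detected in a larger share of Houma strains. NCU04607, NCU06903 and NCU07981 were each detected in 4 of 12 Houma strains and in 0 of 25 southwestern strains (Fisher's exact p = 0.00749 each, adjusted p = 0.984). Each entered this test only through those Houma strains, so these counts and p values are descriptions and not tests. For NCU04607 and NCU06903 those strains included JW75, JW76 and JW171, which were much alike, as described below. The test counted them as separate strains. For NCU06903 the remaining strain was JW168. NCU04947 was detected in 7 of 12 Houma strains and 3 of 25 southwestern strains, and *gh3-8*, a glycoside hydrolase family 3 gene, in 5 of 12 and 1 of 25. Values of NCU07981 reached 3.304 RPKM in Houma and 0.623 RPKM in the southwest, and those of NCU04947 reached 30.2 RPKM in Houma, in JW234, and 2.5998 RPKM in the southwest. The other 5 were detected in fewer Houma strains. NCU01348 was detected in 6 of 12 Houma strains against 24 of 25 southwestern strains (Fisher's exact p = 0.00232, adjusted p = 0.984), and NCU07036 and NCU07946 in 6 of 12 against 23 of 25 each. For NCU11383 the counts were 3 of 12 against 18 of 25, and for NCU08447 2 of 12 against 16 of 25. For NCU01348 and NCU07946 the medians lay close to the limit, at 0.878 RPKM in Houma and 2.26 RPKM in the southwest for NCU01348, and 1.03 and 2.09 RPKM for NCU07946.

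NCU06903, on chromosome VII, was detected at Houma and at no other place of the series. It stood at 20.1 RPKM in JW171, 10.5 in JW76, 6.69 in JW75 and 1.29 in JW168, against at most 0.0879 RPKM in the other 8 Houma strains. The 25 southwestern strains had at most 0.138 RPKM and at most 3 reads, and the other 71 libraries at most 0.2796 RPKM. NCU06903 reached the minimum mean of 1 RPKM only through the Houma strains in which it was high, so its fitted difference of 0.99 is a description and not a test. The same holds for the fit with all 108 libraries, in which it was the single gene called. With JW75, JW76 and JW171 counted as 1 library its mean fell below the minimum and it was not fitted. Genes detected in at least 2 strains of 1 group and in no other library of the series numbered 6 for Houma and 5 for the southwest. Only 2 of the 6 for Houma, NCU06903 and NCU07250, had at most 0.5 RPKM everywhere else, and 0 of the 5 for the southwest did.

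The strains JW75, JW76 and JW171 were also high for NCU04607 and NCU07250. NCU04607 stood at 5.702 RPKM in JW75, 4.84 in JW171, 3.57 in JW76 and 1.33 in JW234, against at most 0.231 RPKM in the other 8 Houma strains and at most 0.866 RPKM in the southwest. It was not found at Houma alone, since 3 of the other 71 libraries lay above 1 RPKM, with a highest value of 1.87 RPKM. NCU07250 was listed at 0 in all 25 southwestern strains and in 9 Houma strains, and had 1.72 RPKM in JW75, 1.09 in JW171 and 0.897 in JW76, the most being 10 reads in a library. These strains were then compared over all genes that switch between strains.

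JW75, JW76 and JW171 were more like each other than any other 2 of the 37 strains by Pearson's r, at 0.979 to 0.985 across the 7984 genes, against 0.830 to 0.973 in the other 63 pairs of Houma strains, 0.862 to 0.974 in the 300 pairs of a Houma and a southwestern strain and 0.855 to 0.975 in the 300 southwestern pairs. Likeness was also counted as the share of 121 genes in the same state, detected or not, among genes whose 10th percentile over 108 libraries was below 0.3 RPKM and whose 90th was above 5 RPKM. JW171 and JW76 shared 81.8% of states, JW75 and JW76 81.0%, and JW171 and JW75 76.0%. The highest other pair of Houma strains, JW169 and JW172, shared 68.6%, the highest pair between the groups 74.4%, and the highest southwestern pair, JW176 and JW24 from Welsh, 76.9%. These correlations and shares are descriptions across genes, which are not independent replicates. Counted as 1 library with their mean, the 3 strains left 0 genes called and 370 at an unadjusted p under 0.05.

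Over all pairs the likeness within Houma was close to that between the groups. The median share of states was 52.9% over the 66 pairs within Houma, and 52.1% without the 3 pairs, against 56.2% over the 300 pairs between the groups and 56.2% over the 300 pairs within the southwest. The median r was 0.943 within Houma, 0.947 between the groups and 0.947 within the southwest. The median SD of a gene on the log2 scale was 0.363 among Houma strains against 0.335 among southwestern strains. Without JW234 and JW168 it was 0.305 in the 10 Houma strains left, and without JW160 it was 0.317 in the 24 southwestern strains left. The order of the groups turned, but these strains were left out for standing apart, and a larger share of Houma was left out.

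**Figure D3:**
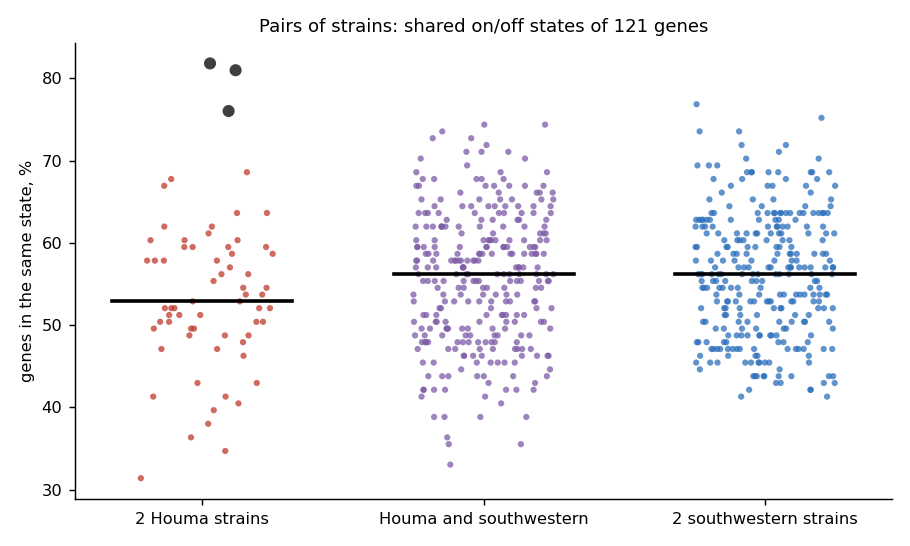
Each point is 1 pair of strains, with the share of 121 genes in the same state (detected at 1 RPKM or not) on the y axis and the kind of pair on the x axis (66 pairs within Houma, 300 between the groups, 300 within the southwest), and the bar is the median. The 3 large black points are the pairs of JW75, JW76 and JW171, at 76.0% to 81.8%, above the other Houma pairs.

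Neighbouring genes switched together in places. NCU02975 and NCU02976, direct neighbours on chromosome I, were both detected in 5 and both undetected in 7 of the 12 Houma strains. In the southwest both were detected in 18 and both undetected in 6 of 25 strains. The other 1, JW246, detected NCU02975 only, with NCU02976 at 0.698 RPKM, under the limit of 1 RPKM. The states were well apart, since NCU02975 had at most 0.204 RPKM in the 7 Houma strains without it and at least 4.07 RPKM in the 5 with it, and the 7 without it included JW75, JW76 and JW171. Elsewhere in the series 43 of 71 libraries detected both, and 4 detected NCU02975 only, with NCU02976 at 0.700 to 0.958 RPKM. The differences were -1.03 (SE 0.44) for NCU02975 and -0.93 (SE 0.35) for NCU02976, with unadjusted p values of 0.0244 and 0.0121 and a limma adjusted p of 0.855 for both. Counting JW75, JW76 and JW171 as 1 library took the unadjusted p to 0.0874 and 0.0421.

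Another run of neighbours lay further along chromosome I, at NCU00753, NCU00752, NCU00751 and NCU11095. All were lower in Houma, by -0.19, -0.35, -0.30 and -0.96 on the log2 scale, with unadjusted p values between 0.0066 for NCU11095 and 0.0361 for NCU00751 and a limma adjusted p of 0.855 each. NCU11095 had 4.802 to 68.5 RPKM in Houma (median 17.9) against 11.8 to 191 RPKM in the southwest (median 46.8). NCU00751 and NCU11095 overlap in the annotation, so reads of the overlap may belong to either. Over the genome 6044 pairs of neighbours had both genes tested, and in 21 pairs both had an unadjusted p under 0.05, 15 with both lower in Houma, 2 with both higher and 4 in opposite directions. Of the tested neighbours of genes with an unadjusted p under 0.05, 6.21% had one as well, against 5.52% of all genes.

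A pair at the limit of detection was NCU00708 and its neighbour *gh3-8* (NCU00709), also on chromosome I. NCU00708 had 0.292 to 1.08 RPKM in Houma (median 0.614) against 0.07098 to 0.597 RPKM in the southwest (median 0.199), too little to enter the main comparison. All 12 Houma strains lay above the southwestern median and 6 above every southwestern strain. These values rest on 4 to 11 reads in a Houma library and 1 to 10 reads in a southwestern library. When genes with a mean under 1 RPKM were kept, NCU00708 was the only gene of 9617 called by limma, with a difference of 0.40 (SE 0.062, adjusted p = 0.00191), and no other alternative tested it. Such levels were not found at Houma alone, since 3 of the other 71 libraries had at least 1 RPKM, against 1 of 12 Houma strains. *gh3-8* had 0.2001 to 4.798 RPKM in Houma (median 0.734) against 0.144 to 11.5 RPKM in the southwest (median 0.349).

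**Figure D4:**
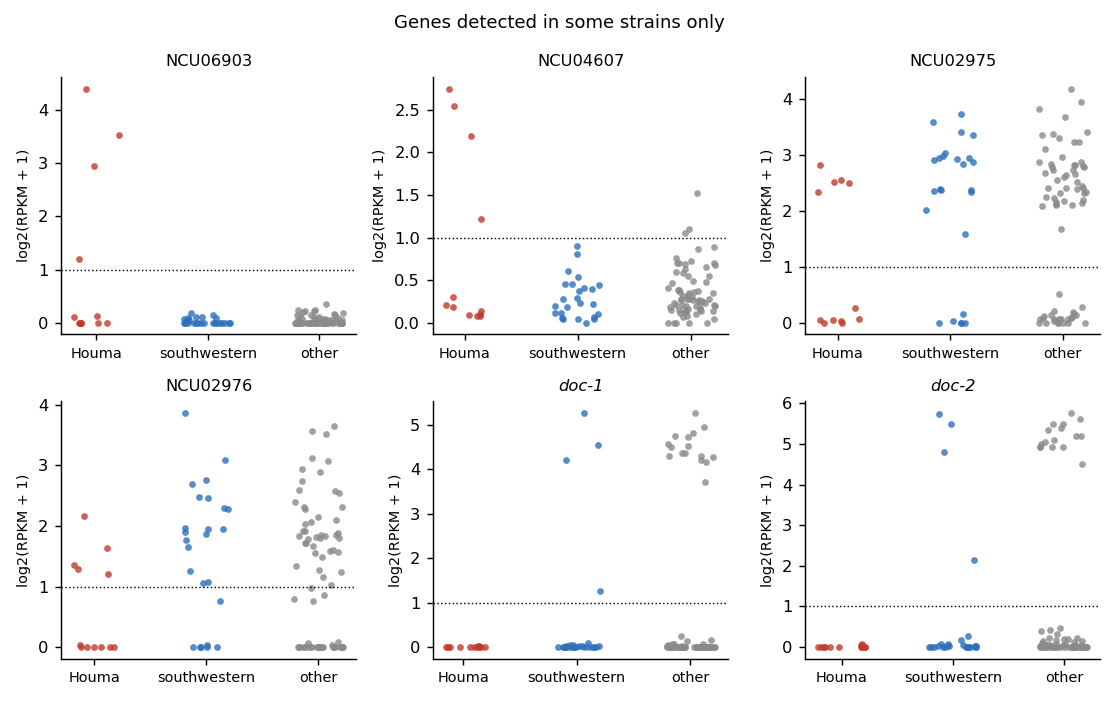
Each point is 1 strain, with log2(RPKM + 1) on the y axis and the 12 Houma (red), 25 southwestern (blue) and 71 other libraries (grey) on the x axis; the dotted line marks 1 RPKM. NCU06903 exceeds the line in 4 Houma strains only, NCU02975 and NCU02976 are split into 2 levels within every group, and *doc-1* and *doc-2* exceed it in 0 Houma strains, 4 southwestern strains and 16 others, among them JW9 from Welsh and JW96 from Roanoke.

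Gene lists that fit the study and the culture were then read against all genes. Over 19 lists 213 genes were tested, 0 of them passed, and 9 (4.23%) had an unadjusted p under 0.05, against 5.52% of all genes. The study mapped germling communication, the mutual attraction of germinated conidia before they fuse, and its candidate genes with the partners of the calcium sensor CSE1 formed 1 list of 22 genes. Of these 18 were below 0 and 4 above, with a median difference of -0.059 against -0.024 over all genes, where 58.1% were below 0. *cse-1*, whose product is related to neuronal calcium sensor proteins, had 235 to 345 RPKM in Houma (median 285) against 228 to 391 RPKM in the southwest (median 305). Its difference was -0.056 with a 95% interval of -0.19 to 0.080 (limma adjusted p = 0.985), which leaves no room for a 1.5-fold difference. The partner *pik1*, which encodes a phosphatidylinositol 4-kinase, differed by -0.068 (interval -0.20 to 0.065), and *nfh-2*, which encodes a 14-3-3 protein, by 0.017 (interval -0.10 to 0.13). In all, 1 gene of the list had an unadjusted p under 0.05.

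Genes of cell fusion, which hyphae and germlings use to join, were near the level of all genes. Of 20 tested 14 were below 0 and 6 above, with a median difference of -0.027. *so*, which encodes the fusion protein SOFT, had 8.84 to 23.8 RPKM in Houma (median 17.1) against 12.9 to 28.8 RPKM in the southwest (median 18.7), a difference of -0.24 (SE 0.10, unadjusted p = 0.0255, limma adjusted p = 0.855). *mak-2*, the MAP kinase of the same process, had medians of 416 RPKM in Houma and 438 in the southwest, a difference of -0.086 (SE 0.063). *prm-1*, which acts in merging the membranes, had medians of 344 and 318 RPKM, a difference of 0.13 (SE 0.10).

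Among 13 allorecognition genes tested, 8 were below 0 and 5 above (median -0.062), and 0 had an unadjusted p under 0.05. *doc-1* (NCU07191) and *doc-2* (NCU07192), neighbours that set the communication group of a strain, were undetected in all 12 Houma strains, with at most 0.0205 and 0.0573 RPKM. In the southwest 4 strains detected both, JW16, JW238 and JW184 at 26.7, 52.7 and 43.9 RPKM of *doc-2* and JW160 at 3.41 RPKM, as did 16 of the other 71 libraries, among them JW9 from Welsh and JW96 from Roanoke at 21.6 and 33.4 RPKM of *doc-2*. Both genes entered the comparisons only through the southwestern strains in which they were high. For *doc-2* the fitted difference was -0.75, with an interval of -1.77 to 0.28. That difference and the counts of 0 of 12 Houma and 4 of 25 southwestern strains are descriptions and not tests. *het-c*, a heterokaryon incompatibility gene, had medians of 24.7 RPKM in Houma and 20.6 in the southwest, and *vib-1*, a transcription factor needed for cell death in incompatibility, 118.8 and 141.

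Of the nutrient lists, 2 of 10 nitrogen genes and 1 of 4 sulfur genes had an unadjusted limma p under 0.05, against 5.52% of all genes. The lists are short, and none of the phosphate and quinic acid genes had one, so these counts are only a description. *nit-2*, the GATA factor that turns on nitrogen catabolism, had 16.4 to 42.4 RPKM in Houma (median 27.2) against 17.9 to 66.5 RPKM in the southwest (median 32.9), a difference of -0.44 (SE 0.17). *am*, the NADP-dependent glutamate dehydrogenase, had 560.2 to 1430.2 RPKM in Houma (median 1101) against 752 to 2298 RPKM in the southwest (median 1306), a difference of -0.34 (SE 0.14). The 10 nitrogen genes had 7 below 0 and 3 above and a median of -0.095, and *nit-3*, nitrate reductase, had medians of 6.69 RPKM in Houma and 14.9 in the southwest with a wide interval of -1.61 to 0.46. *cys-14*, a sulfate permease, had 8.92 to 50.7 RPKM in Houma (median 28.6) against 9.36 to 87.3 RPKM in the southwest (median 44.05), a difference of -0.61 (SE 0.24), with its regulator *cys-3* at 192 and 262 RPKM. The unadjusted p was 0.0152 for *nit-2*, 0.0188 for *am* and 0.0155 for *cys-14*, and the limma adjusted p was 0.855 for all. The 7 phosphate genes and the 6 genes of the quinic acid cluster had medians of -0.024 and 0.0032 and 0 genes with an unadjusted p under 0.05.

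All 7 heat shock genes tested were below 0 (median -0.093), against 58.1% of all genes (median -0.024). Some lay near 0, such as *hsp88* at -0.012 and *hsp60* at -0.074. For *hsp60* the Houma median was the higher, at 288 against 243 RPKM. Only 1, *hsp80*, the Neurospora member of the Hsp90 family of chaperones, had an unadjusted p under 0.05, against 5.52% of all genes. The list is short, so these counts are only a description. *hsp80* had 189.8 to 869 RPKM in Houma (median 579) against 449.6 to 944 RPKM in the southwest (median 655), a difference of -0.31 (SE 0.14, unadjusted p = 0.0337, limma adjusted p = 0.855). The lowest values, 189.8 RPKM in JW234 and 335 in JW76, lay below every southwestern strain. *qip*, an exonuclease of the quelling pathway of RNA silencing, was higher in Houma, at 9.66 to 34.8 RPKM (median 22.02) against 10.01 to 31.9 RPKM in the southwest (median 14.9), a difference of 0.32 (SE 0.15, unadjusted p = 0.0406, limma adjusted p = 0.855). *nde-3*, an alternative NADH dehydrogenase of mitochondria, had medians of 12.5 RPKM in Houma and 14.2 in the southwest, a difference of -0.28 (SE 0.11, unadjusted p = 0.0148, limma adjusted p = 0.855).

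Light and carotenoid genes, of which 18 were tested, had 12 below 0 and 6 above, with 0 at an unadjusted p under 0.05. Their median of -0.125 was the lowest of the lists with more than 10 genes. Over all genes 58.1% were below 0 and the median was -0.024. *al-2*, an enzyme of carotenoid synthesis, had 33.8 to 1039.6 RPKM in Houma (median 175) against 49.98 to 802 RPKM in the southwest (median 269). The light receptor gene *wc-1* had medians of 24.1 and 30.3. Their differences were -0.41 and -0.21 (unadjusted limma p = 0.290 and 0.237). Among the 6 genes above 0, *bli-3* had medians of 388 RPKM in Houma and 205 in the southwest. The differences of *bli-3* and *phr* were 0.21 and 0.26 (unadjusted limma p = 0.680 and 0.204). The catalase genes *cat-3* and *cat-2* had medians of 84.6 and 51.2 RPKM in Houma against 121 and 85.6 RPKM in the southwest. Their differences were -0.47 (SE 0.24, unadjusted p = 0.0599) and -0.71 (SE 0.38, unadjusted p = 0.0673), with a limma adjusted p of 0.907 each. The catalases belong to the list of copper, zinc and superoxide genes, of which 4 were below 0 and 4 above. Of the same list *cat-1* differed by -0.20, *sod-2* by 0.34 and *tcu-1* by 0.56. Genes of steady processes differed little. The 10 ribosomal protein genes lay between -0.052 and 0.088 with a median of 0.038, the 30 subunits of respiratory complex I between -0.11 and 0.23 with a median of 0.015, and the 7 histone genes had a median of 0.020. Plant polysaccharide genes (14 tested, median -0.029), genes of copper, zinc and superoxide (8, -0.029), mating and pheromone genes (6, -0.067), silencing genes (13, -0.040) and respiration genes outside complex I (7, 0.010) also had 0 calls, as did the single iron gene tested.

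**Figure D5:**
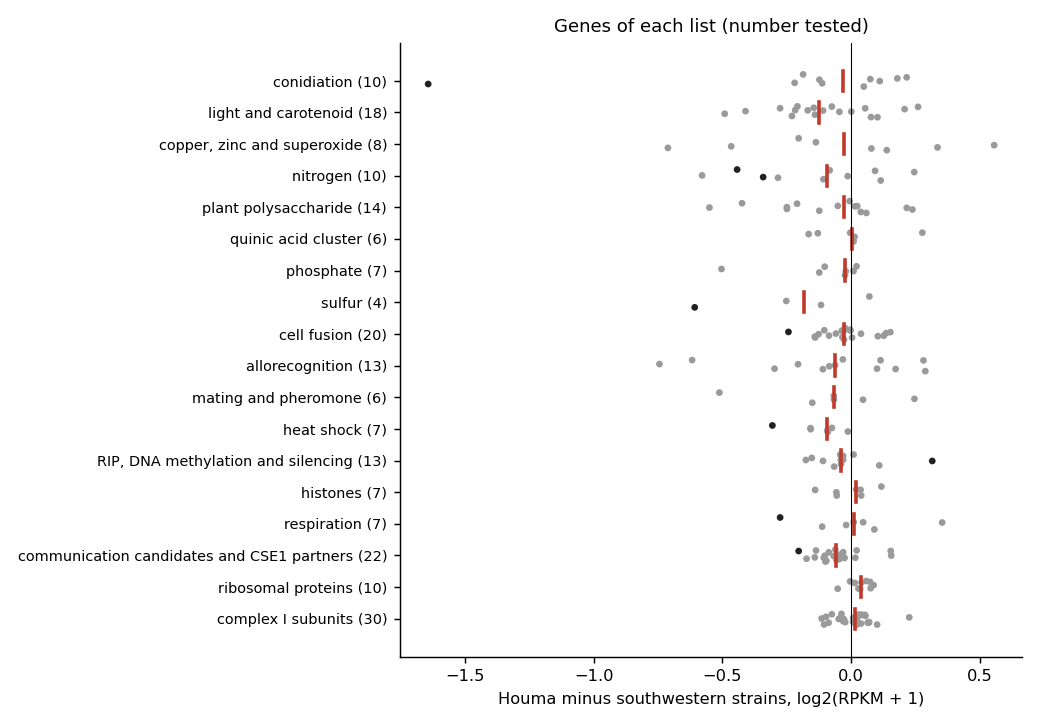
Each point is 1 gene of a list, with the Houma minus southwestern difference in log2(RPKM + 1) on the x axis and the lists on the y axis with their number of genes tested; black points have an unadjusted p under 0.05 and the red bar is the median of the list. The medians lie between -0.18 for 4 sulfur genes and 0.038 for 10 ribosomal protein genes, and *eas* at -1.64 stands furthest from 0.

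The southwestern strains were also compared among themselves, by place. Between Welsh, Roanoke and Iowa the limma F test over 7982 genes called 0 genes (0%), with 252 (3.16%) at an unadjusted p under 0.05 and a smallest adjusted p of 0.968. The genes that led the comparison with Houma did not lead there, since the unadjusted p among the places was 0.495 for NCU04913, 0.0622 for NCU02466, 0.777 for NCU05602, 0.243 for *eas* and 0.615 for NCU04467. When Houma was set against each place alone, 5.61% of genes had an unadjusted p under 0.05 against Welsh, 1.47% against Roanoke and 3.87% against Iowa, and 0 were called in each case. These 3 comparisons share the 12 Houma strains and set them against 10, 7 and 8 strains, so their shares do not rank the places.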

How the data were processed

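Mycelial RNA of 112 strains was sequenced, with 1 library per strain. The authors deposited 1 table of RPKM for 9733 genes, scaled by gene length and library total. The submitters' processing notes name Bowtie 0.12.2. What counted the reads, and on which annotation release, is not stated. Column names identified every strain, with 0 columns unused, and places came from the study's list of strains. Whole reads (within 0.001) were recovered for 100% of the 9696 genes above 0 from the steps of the deposited RPKM values, which gave library totals and coding lengths.

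The 12 Houma and 25 southwestern libraries were compared on log2(RPKM + 1) with limma 3.58.1 in R 4.3.3 (trend, mean of at least 1 RPKM, Benjamini-Hochberg at 0.05). Fisher's exact tests on detection used scipy 1.17.1. Since strains were not cultured again, p-values measure the spread between these samples, and intervals cover only that spread. Scripts were tested on simulated data. Named were the 5 genes with the smallest p in each direction, list members past the threshold, the 10 with the smallest Fisher p and *cse-1*, while other genes were named after their values were seen. The groups and the gene lists were chosen with earlier results of these data known. Of the 9733 IDs, 8914 matched the table of names (assembly NC12), used only for names and neighbours. 30 list names had no match and are not analysed here, and 1 gene of the communication list is not reported here.

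The alternatives were other pseudocounts (0.1 and 5 RPKM), filters and detection limits, median centring, quantile normalization, the library total, no trend, array weights, voom on recovered reads, all libraries in 1 fit, each southwestern place alone, no JW168, and JW9 (Welsh) and JW96 (Roanoke) added. Leaving out JW234 or JW160, leaving out these with JW168, and counting JW75, JW76 and JW171 as 1 library were chosen after seeing the data.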

Additional observations from a re-analysis of the deposited data

How the results depend on the processing

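Of 20 alternatives for Houma against the southwest, 18 called 0 genes, with 1.47% (Roanoke alone) to 10.97% (array weights) of genes at an unadjusted p under 0.05. The count was 1 with no filter on low values, where NCU00708 was called, and 1 with all libraries in 1 fit, where NCU06903 was called (adjusted p = 0.00768), which entered the fit only through its Houma strains, and the cause was not tested. Without JW168 the count stayed at 0, with a smallest adjusted p of 0.561. All 10 alternatives among Welsh, Roanoke and Iowa and all 5 for detection called 0 genes. None of the 36 single-gene differences recomputed turned its direction in any alternative that tested it. Most of these genes were chosen for their values in these libraries, which the alternatives reuse. A kept direction is therefore not a separate test. Genes near 1 RPKM rest on few reads, as NCU04913 and NCU00708 do, and 535 genes had intervals reaching past a 2-fold difference. No paired analysis was possible because the labels carry no replicate numbers and each strain has 1 library. The study profiled part of its strains in an earlier round, and since the sources used here do not assign these 37 strains to rounds, the part of the round was not tested.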
